A study of Mus musculus with 2 samples.

Results

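The distal Dlk1-Dio3 cluster is the run of microRNA genes on mouse chromosome 12 that begins at Mir379. It was measured by small RNA sequencing (size range under 30 bases) in whole lung of newborn mice of the strain B6NCrl. Its members were all rows of the deposited count tables that stand for a GENCODE miRNA gene from Mir379 (start at 109709060 of mm10) to Mir3072 (end at 109747960), on chromosome 12. These were 38 of 1973 rows in all. Both libraries were untreated lung from postnatal day 0, and each was made from 2 lungs of a different pup of pregnancy 1, pup 1 for replicate 1 and pup 3 for replicate 2. The labels give both pups the same donor record, and sex was not collected. There was 1 group of 2 libraries with no other tissue, age or treatment, so levels, their spread and a comparison of the libraries are what the design allows. In whole tissue, fewer cells of a type and less RNA per cell cannot be told apart.

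The Dlk1-Dio3 region is imprinted: its protein-coding genes are expressed from the paternal chromosome, and its long noncoding RNAs, small nucleolar RNAs and microRNAs from the maternal one. The microRNAs of the distal cluster are thought to be cut from long maternal transcripts, of which Mirg is the annotated part. They are specific to placental mammals and best known from brain, embryo and placenta, and loss of the cluster in mice impairs the metabolic adaptation to birth. A microRNA precursor is a hairpin whose arms give mature microRNAs of about the length of the reads. Bases 2 to 8 of a mature microRNA, its seed, select the messenger RNAs it represses.

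Of the 38 members, 37 matched a mature sequence in the RefSeq table of GRCm38.p6, with 69 mature sequences in all. The exception was Gm27379. The table holds 1738 mature sequences of mouse. Reads were counted per precursor and the arm they came from is not recorded, so the level of a member is the sum of its arms. Sequences of several leading members are shown for this reason. Mir487b has only a 5p sequence in the table, and of Mir1193 only the 5p arm is printed. All are printed 5′ to 3′ with the seed in capitals.
miR-411-5p: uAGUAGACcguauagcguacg
miR-411-3p: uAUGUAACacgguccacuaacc
miR-379-5p: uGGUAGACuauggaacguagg
miR-379-3p: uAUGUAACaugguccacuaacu
miR-1193-5p: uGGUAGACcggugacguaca
miR-541-5p: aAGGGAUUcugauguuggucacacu
miR-541-3p: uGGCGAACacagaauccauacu
miR-487b-5p: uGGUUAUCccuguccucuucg
miR-376a-5p: gGUAGAUUcuccuucuaugagu
miR-376a-3p: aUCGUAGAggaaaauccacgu
miR-369-5p: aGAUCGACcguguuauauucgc
miR-369-3p: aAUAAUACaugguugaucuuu
miR-382-5p: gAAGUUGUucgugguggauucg
miR-382-3p: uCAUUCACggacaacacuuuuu

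The 69 mature sequences had 64 different seeds, so most members do not share a listed seed with a neighbour. Mir376c, Mir487b, Mir539, Mir485 and Mir453 have only 1 mature sequence each in the RefSeq table, so a seed of their other arm is not counted. Over the listed sequences, 5 seeds were held by more than 1 member, with 9 members in all. Of the seeds, 12 also occurred in a miRNA gene that is not a member. The 3p arms of Mir379 and Mir411 share the seed AUGUAAC, and no other gene in the table holds it. The 5p arms of Mir379 and Mir1193 share GGUAGAC, and that of Mir411 has the seed AGUAGAC, which Mir7229 also holds. The other shared seeds were GGUUGUC in Mir494 and Mir410, GGUUGCC in Mir453 and Mir496a, and GGUUGAC in Mir1197 and Mir758. Among the seeds shared with genes elsewhere, ACACACC joins miR-329-3p to Mir362, and AUAUAAC joins miR-410-3p to Mir344d-1, Mir344d-2, Mir344d-3 and Mir344e.

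The libraries held 4532902 and 5426081 own-strand reads on miRNA genes in replicates 1 and 2. A level is given as reads per 1000000 of these (CPM), so that 1 read is 0.221 and 0.184 CPM. The lung markers were present: Mir126a of endothelium stood at 160640.4 and 160658 CPM, and Mir449a of multiciliated cells at 17359 and 18195 CPM. The summed marker levels of other cell types, in replicates 1 and 2, were 416 and 455 CPM over 4 striated muscle miRNAs, 111 and 101 CPM over 4 neuronal ones and 1292 and 1131 CPM over 2 erythroid ones. All 4 neuronal markers had reads, from 231 and 303 reads on Mir137 to 2 and 4 on Mir488. The 2 erythroid ones differed in opposite directions, with 1064 and 716 CPM on Mir451a and 228 and 415 CPM on Mir144. The part of these cells in the level of the cluster was not tested.

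The cluster as a whole took 29402 CPM in replicate 1 and 30319.9 CPM in replicate 2, from 133275 and 164518 reads. This is 29861 ± 649 CPM (SD, n = 2), a count equal to 2.99% ± 0.065 of the own-strand total. The cluster's reads include opposite-strand reads of 4 members, which that total does not hold. Without those members the cluster stood at 24374 ± 488 CPM (SD, n = 2). The exact 95% intervals of this percentage, which treat all the cluster's reads as part of that total, were 2.92% to 2.96% and 3.02% to 3.05%. They do not overlap, but they cover counting error only, so the spread among pups cannot be read from them. A gene is called detected where replicate 1 and replicate 2 both gave it 10 reads or more. This held for 33 members (86.8%), beside 15.8% of all rows. The median level over all 38 members was 107.5 and 98.2 CPM in replicates 1 and 2, beside a median of 0 CPM over all 1973 rows. Over detected members alone the median was 212.9 and 170.5 CPM, beside 151.0 and 148.1 CPM over all 312 detected rows.

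Mir411 was the highest member, at 6733 and 7036 CPM in replicates 1 and 2, a mean of 6884 ± 214 (SD, n = 2) and rank 24 of all rows. Its neighbour Mir379, which begins the cluster, followed at 4323 and 4620 CPM. Mir541, near the distal end and inside an intron of Mirg, followed at 3255 and 2722 CPM. Mir411 lies at chr12:109710175-109710256, Mir379 at chr12:109709060-109709125 and Mir541 at chr12:109742409-109742498, all on the plus strand. The ranges of these 3 genes over the libraries do not overlap. Together they took 48.7% and 47.4% of the cluster's reads, and with Mir487b and Mir376a the 5 highest took 61.2% and 61.4%. The 10 highest took 85.5% and 85.8%, and these 10 were the members with at least 1000 CPM in both libraries, out of 81 such rows in the tables.

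The next members lay close together. Mir487b stood at 2029 ± 282 CPM (SD, n = 2), with 1830.0 and 2229 in replicates 1 and 2. Mir376a stood at 1934 ± 111 CPM, and its family is known for editing of adenosines by ADAR enzymes, which a count per gene does not record. The ranges of these 2 over the libraries overlap, so their order is not settled. Mir369 at 1536 and 1605 CPM, Mir382 at 1436 and 1691 CPM, Mir299a at 1537 and 1542 CPM and Mir409 at 1587 and 1483 CPM also overlap, and no order can be read among them. Mir381 at 1037 and 1089.9 CPM and Mir154 at 1025 and 893 CPM, the gene that names a family of related hairpins, came next. Mir1193 followed at 775 and 959 CPM, with a range that overlaps that of Mir154.

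**Figure D1:**
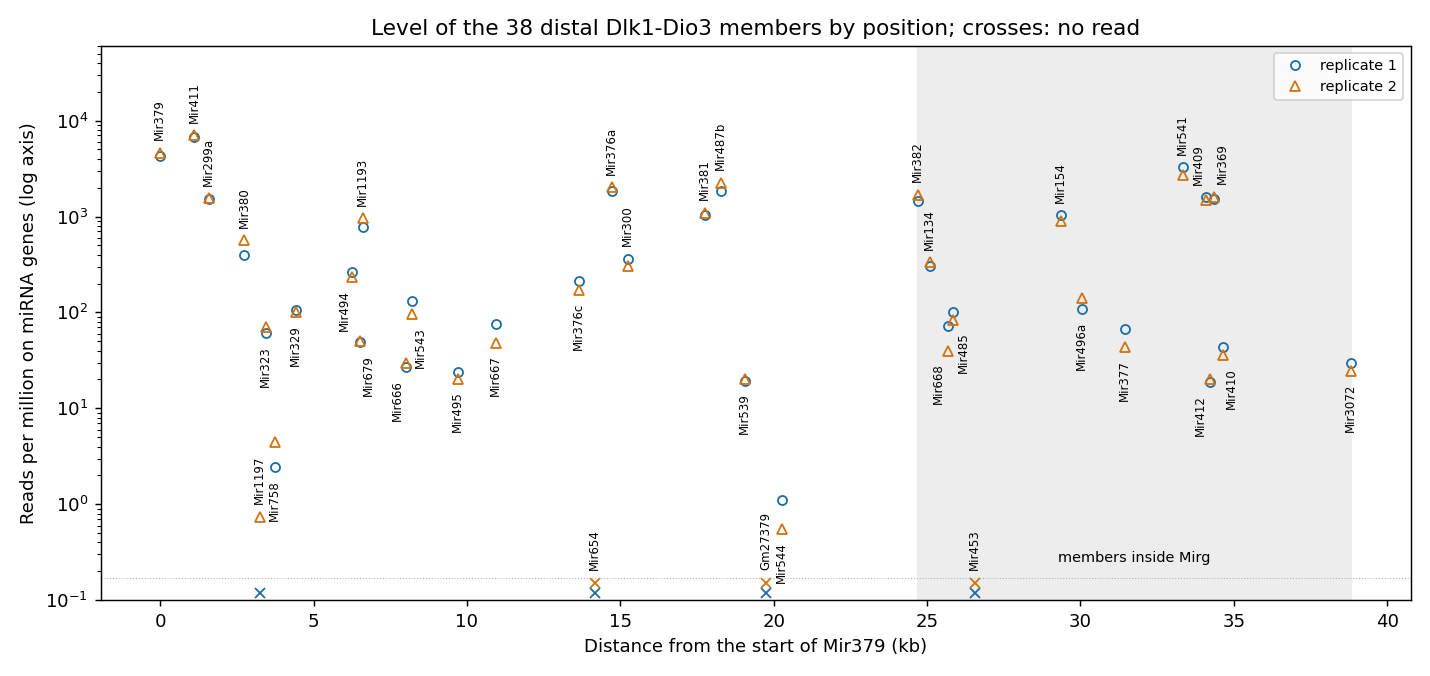
Level of each member in CPM on a log axis against its distance in kb from the start of Mir379, with circles for replicate 1, triangles for replicate 2 and crosses for members with no read in that library. The libraries lie nearly on each other for most members, while neighbours often stand far apart, as Mir487b and Mir539 do at about 101-fold. Some pairs with a member that was not detected stand further apart still, such as Mir544, with 5 and 3 reads, and Mir382. Others, such as Gm27379 and Mir544, do not.

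Of the 38 members, 4 have no count row of their own and were read through a row on the other strand. These are Mir376a (row Gm25252), Mir409 (row Gm24321), Mir299a (row Mir299b) and Mir380 (row Gm25750). Their reads fell on the strand opposite to the row, 8413 and 10919 for Mir376a, 7194 and 8046 for Mir409, 6966 and 8368 for Mir299a and 1782 and 3060 for Mir380. Together they made up 18.3% and 18.5% of the cluster's reads, and 29.1% and 28.0% of all opposite-strand reads on miRNA genes in the tables. The 34 plus-strand members had 0 opposite-strand reads in either library, and own-strand reads on the 4 minus-strand rows were 9 and 11, all on Mir299b. Reads in this window thus lay almost wholly on the plus strand. The minus-strand Gm44322 and the plus-strand Mir376b have no row and are not analysed here.

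Mir299a and Mir299b lie on opposite strands of the same place, and their sequences are shown because they share letters as well.
miR-299a-5p: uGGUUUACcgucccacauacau
miR-299b-5p: gGUUUACCgucccacauacau
miR-299a-3p: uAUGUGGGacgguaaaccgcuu
miR-299b-3p: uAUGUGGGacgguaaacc
The 21 bases of miR-299b-5p are contained in miR-299a-5p from its base 2, and the 18 bases of miR-299b-3p are the start of miR-299a-3p. A read of only those bases has a place on each strand, and reads with several places are counted apart from the gene rows. How many of these came from Mir299a is not in the tables, and its level of 1539 ± 3.83 CPM (SD, n = 2) leaves them out.

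At the low end, Mir758 had 11 and 24 reads, or 2.43 and 4.42 CPM, the lowest of the detected members. The other 4 of the 5 lowest were Mir412 at 18.8 and 20.1 CPM, Mir539 at 19.4 and 20.5 CPM, Mir495 at 23.8 and 20.5 CPM and Mir3072 at 30.0 and 24.5 CPM. The range of Mir539 overlaps that of Mir412 and touches that of Mir495, so its place beside them is not settled. The ranges of Mir412 and Mir495 do not overlap, but in replicate 2 these had 109 and 111 reads, so no firm order can be read. Mir411 exceeded Mir758 by 2774-fold in replicate 1 and 1591-fold in replicate 2. Mir544 had 5 and 3 reads, and Mir1197 had 0 and 4. Mir654, Mir453 and Gm27379 had no read in either library, which allows up to 0.662 and 0.553 CPM for reads with 1 place.

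Some members are well known from neurons. Mir134, which restrains dendritic spine growth by repressing Limk1, had 304 and 333 CPM. Mir329, transcribed with it in active neurons, had 107 and 100.4 CPM, and Mir485, a regulator of synapses, had 101 and 84.2 CPM. Mir495 and Mir410 stood at 22.1 ± 2.38 and 39.6 ± 5.16 CPM (SD, n = 2). Of the members without a part in the comparisons above, Mir300 had 362 and 307 CPM and Mir543 133 and 96.0. Mir323 had 60.7 and 69.8 CPM, Mir679 48.8 and 50.1, and Mir666 26.9 and 29.7.

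Levels were then followed along the chromosome. The members span 38901 bases, with gaps of 20 to 4368 bases between neighbours and a median of 590. The first 10 kb of the window hold 14 members and took 49.1% and 50.5% of the cluster's reads in replicates 1 and 2, with Mir411 the highest. The next 10 kb, with 9 members led by Mir487b, took 18.3% and 19.4%. The following 7 members, led by Mir382, had 2939 and 3042 CPM, and the last 8, led by Mir541, had 6645 and 6076 CPM. The median member level in these stretches was 109, 192, 92.6 and 90.3 CPM, so the high share of the first stretch rests on its highest members. Mir379 on the proximal edge had 19597 and 25067 reads and Mir3072 on the distal edge had 30.0 and 24.5 CPM. The nearest rows outside were Mir882, 26.7 kb before, with 0 reads in either library, and the minus-strand Mir1247, 530.0 kb after, with 68 and 22.

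Genes lying side by side differed far more than the libraries did. Among 28 pairs of neighbours that were both detected, 16 differed 4-fold or more in each library and 9 differed 10-fold or more. Mir487b exceeded Mir539, 714 bases away, by 6.66 ± 0.15 on the log2 scale (SD, n = 2). Mir1193 and Mir679 lie 20 bases apart, and the log2 ratio of Mir679 to Mir1193 was -4.12 ± 0.19. Mir323 exceeded Mir758 by 4.31 ± 0.47, and the log2 ratio of Mir377 to Mir541 was -5.79 ± 0.26. Small differences between neighbours also occurred: the log2 ratio of Mir379 to Mir411 was -0.62 ± 0.023, and that of Mir381 to Mir487b was -0.93 ± 0.15.

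Large contrasts over short distances occurred in the closely spaced group Mir409, Mir412, Mir369 and Mir410, at 109743158 to 109743795. The hairpins lie 52, 49 and 218 bases apart and are shown because such near neighbours gave levels of about 1535, 19.4, 1570.3 and 39.6 CPM. Positions are on the plus strand, and capitals mark the letters CGCUU.
Mir409: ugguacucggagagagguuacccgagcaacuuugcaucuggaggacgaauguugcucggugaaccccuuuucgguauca
Mir412: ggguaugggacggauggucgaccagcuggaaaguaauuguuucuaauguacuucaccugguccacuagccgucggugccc
Mir369: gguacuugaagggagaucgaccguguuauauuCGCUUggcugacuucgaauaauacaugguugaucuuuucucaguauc
Mir410: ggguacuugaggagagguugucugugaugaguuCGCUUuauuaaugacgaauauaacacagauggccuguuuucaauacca
Mir409 exceeded Mir412 by 6.30 ± 0.14 on the log2 scale (SD, n = 2), the ratio of Mir412 to Mir369 was -6.34 ± 0.025, and Mir369 exceeded Mir410 by 5.32 ± 0.23. High and low members thus alternated within one stretch in both pups. Folding energies computed by RNAfold were -37.5, -33.9, -33.1 and -34.7 kcal/mol for these 4 hairpins in that order, and they do not follow the levels.

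Hairpins of the cluster resemble each other in some features. Both CGCUU and AGAGAGG were searched on the hairpin's own strand and were chosen after the sequences had been seen. The letters CGCUU were found in 13 of 35 hairpins of members in the table (37.1%). They were found in 2.27% of 970 hairpins outside the cluster and in 0 of 17 in the proximal part of the region. AGAGAGG was found in 5 of the 35 (14.3%), in 1.03% of those outside and in 1 of the 17. The median level was 115 CPM over the 13 members with these letters and 159 CPM over the 22 without. The median GC content was 43.4% in the cluster, 56.5% in the proximal hairpins and 51.7% over all 1005 hairpins. Across 32 detected members with a hairpin, which share libraries and depth, log2 level and GC content had a Pearson r of -0.26 and a Spearman rho of -0.23, and log2 level and folding energy had 0.11 and 0.09. These are descriptions across genes, which are not replicates.

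By the annotation, 24 members from Mir379 to Mir544 lie between genes and 14 lie inside Mirg. Of the latter, 4 lie within an exon of at least 1 Mirg transcript (Mir134, Mir485, Mir377 and Mir410) and 5 overlap an exon in part. The other 5 are intronic. The exonic members totalled 506 ± 13.2 CPM (SD, n = 2) and ranged from 39.6 to 319 CPM. The intronic ones (Mir453, Mir154, Mir496a, Mir541 and Mir409) totalled 5608 ± 519 CPM, and ranged from 0 for Mir453 to 2988 for Mir541. The 5 partly exonic ones (Mir382, Mir668, Mir412, Mir369 and Mir3072) totalled 3236 ± 204 CPM and ranged from 19.4 for Mir412 to 1570.3 for Mir369. The ranges of the 3 classes overlap.

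The libraries, 1 from each pup, were compared next. A difference between pups cannot be told apart from a difference between library preparations. A p-value here compares 2 libraries by their read counts, and the spread among pups cannot be estimated from it. The 33 members whose summed reads reached 10 were tested. Of these, 22 (66.7%) passed an exact binomial test (two-sided, adjusted by Benjamini-Hochberg over all 378 rows tested), which 42.9% of those rows passed. Members were among the deeper rows: at 100 reads or more in the libraries together, 22 of 32 members and 58.0% of 255 rows passed. In replicate 2, 11 members were higher and 11 lower, beside 19.6% of all rows tested that were higher and 23.3% that were lower. The median log2 ratio of replicate 2 to replicate 1 was 0.04 over the tested members and -0.03 over all rows tested.

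The largest tested differences stayed under 1 on the log2 scale. Mir380, whose row lies on the other strand, had 393 and 564 CPM in replicates 1 and 2 and was higher in replicate 2 by 0.52 on the log2 scale (95% counting interval 0.44 to 0.61, adjusted p 1.29e-33 in the exact binomial test). Mir496a had 108 and 143 CPM and was higher by 0.40 (adjusted p 4.14e-06, exact). Mir1193 was higher by 0.31 (8.11e-22). On the other side, Mir668 had 71.9 and 39.8 CPM, a log2 ratio of -0.85 (adjusted p 5.27e-11, exact). Mir667 had 75.7 and 48.3 CPM and a ratio of -0.65 (1.76e-07), and Mir377 had 67.1 and 43.3 CPM and a ratio of -0.63 (2.00e-06). Members above and below were neighbours in places: Mir134, 522 bases before Mir668, was higher by 0.13 (adjusted p 0.0265, exact), and Mir496a, next to Mir377, was higher where Mir377 was lower.

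Among the most abundant members the shifts were smaller, though that of Mir487b, a log2 ratio of 0.28, was close to the 0.31 of Mir1193. Mir411 and Mir379 were higher in replicate 2 by 0.06 and 0.10 on the log2 scale (adjusted p 4.71e-08 and 1.97e-11, exact binomial test), and Mir541 had a log2 ratio of -0.26 (4.79e-52). Mir299a did not pass, at 0.01 with an interval of -0.04 to 0.05 (adjusted p 0.916, exact). With DESeq2's size factors Mir299a passed, at 0.06 (adjusted p 0.032, exact), while Mir494, Mir485 and Mir409 no longer did (0.108, 0.0627 and 0.109). The SD of the log2 ratio was 0.32 over 30 members with a mean of at least 100 reads and 0.26 over 237 such rows in the tables. Of these members 80.0% lay within 25% of an equal level, beside 84.0% of the rows.

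**Figure D2:**
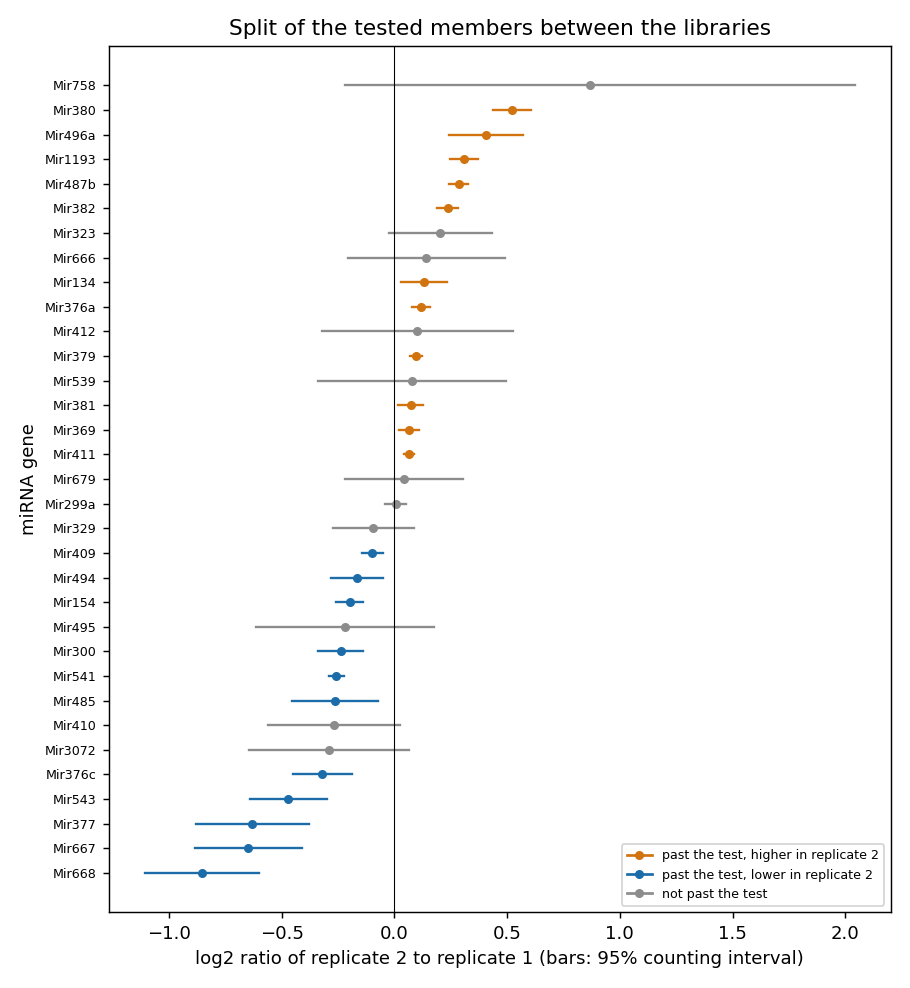
Log2 ratio of replicate 2 to replicate 1 for the 33 tested members, with bars for the 95% counting interval and colours for members past the exact binomial test. The ratios run from -0.85 for Mir668 to 0.87 for Mir758, which had only 11 and 24 reads and did not pass.

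Seed groups were summed over their precursors, with the caution that a sum holds both arms. Mir379 and Mir411, which share the 3p seed AUGUAAC, totalled 11056 and 11655 CPM in replicates 1 and 2, or 37.6% and 38.4% of the cluster. Mir379 and Mir1193, which share the 5p seed GGUAGAC, totalled 5098 and 5578 CPM. The pair Mir494 and Mir410 reached 304 and 269 CPM, and Mir453 with Mir496a 108 and 143 CPM, all from Mir496a. Mir1197 with Mir758 reached 2.43 and 5.16 CPM.

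A stretch of 20 bases found in another miRNA gene can send reads to several places. Such a stretch was held by 4 members: Mir411 and Mir758 share one with each other, and Mir376c and Mir487b each share one with Mir376b. Over the listed mature sequences of these 4, the longest run found in another miRNA gene was 18 bases, in miR-376c-5p against Mir376b. It was at most 13 bases in the others. Of Mir376c and Mir487b only the 5p sequence is listed, so the other arm was not checked. Mir376c itself stood at 213 and 170.5 CPM. The number of its reads counted apart from the gene rows is not in the tables.

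Last, the distal cluster was set beside the proximal miRNA genes of the same strand and imprinted region, from Mir1906-1 to Mir882 (109544541 to 109682273), which include those antisense to Rtl1. The 19 proximal rows totalled 12149 and 11524 CPM in replicates 1 and 2, and 12 of them were detected. Their highest were Mir127 at 7316 and 6159 CPM, Mir431 at 2009 ± 113 CPM (SD, n = 2) and Mir434 at 1113 and 1399.7 CPM. The distal total exceeded the proximal one by 1.34 ± 0.085 on the log2 scale (SD, n = 2), by 1.28 in replicate 1 and 1.40 in replicate 2. An exact sign-flip test (two-sided) could reach no p lower than 0.5 with 2 libraries, so none is printed. Mir127 alone held 60.2% and 53.4% of the proximal total, while the highest distal gene held 22.9% and 23.2% of its own. Without the highest gene of each stretch the log2 ratio was 2.17. It was 0.81 without genes that hold a shared stretch, which removes Mir411 and Mir487b from the distal side. Without the 4 members read through the other strand it was 1.04. The proximal total leaves out the row Mir3071, which GENCODE M21 places on the minus strand, and with that row the ratio was 1.28.

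**Figure D3:**
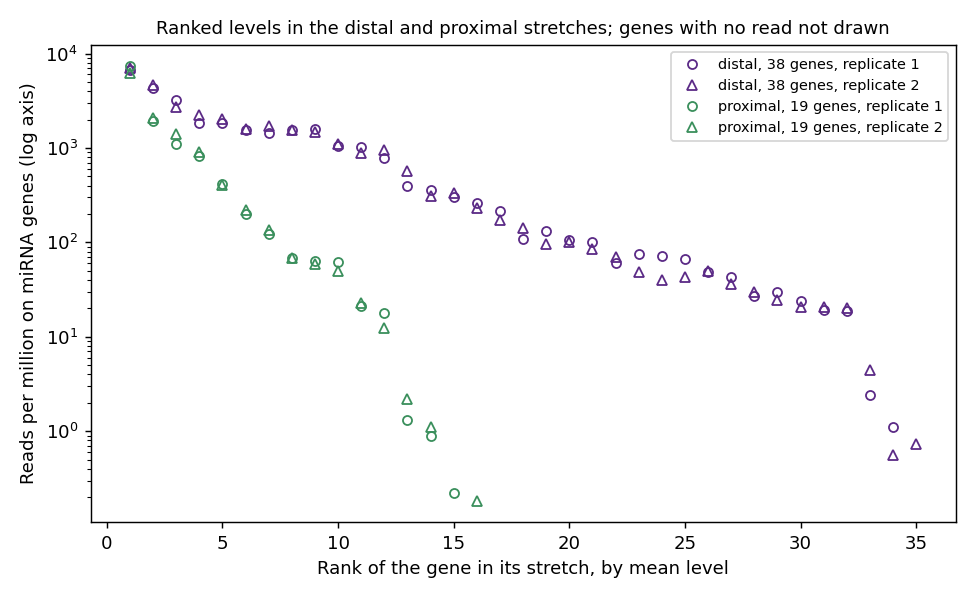
Levels in CPM on a log axis against the rank of each gene in its stretch by mean level, for the 38 distal and 19 proximal genes, with circles for replicate 1 and triangles for replicate 2. The highest genes of the stretches, Mir411 and Mir127, lie close together, and from the second rank on the distal genes lie above the proximal ones of the same rank.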

How the data were processed

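The authors deposited 1 table of raw read counts per library, made with mm10 and GENCODE M4, per the notes deposited beside them. Aligner, counter and trimming: not given in the sources used here. The either-strand column equals the sum of the own-strand and opposite-strand columns in every gene row, and the columns were read so. Position, strand and symbol came from GENCODE M21 on the same assembly, which matched 1894 of 1973 rows. Levels are reads per 1000000 own-strand reads on gene rows (CPM). These totals leave out rows without a gene name: reads on several places took 34.6% and 36.7% of all reads in replicates 1 and 2, unmapped reads 8.49% and 8.69%, and reads on no feature 2.18% and 2.41%.

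The split of each gene's reads between the libraries went into an exact binomial test (two-sided, scipy 1.17.1), adjusted by Benjamini-Hochberg over the 378 rows whose summed reads reached 10. With 1 library a side, edgeR's quasi-likelihood test could not be used. edgeR 4.0.16 (TMM) and DESeq2 1.42.0 gave alternative scalings. The test was checked on simulated data whose only noise was counting error, so the check does not cover differences between pups or library preparations. Intervals of 95% are exact Clopper-Pearson intervals and, like floors, cover counting error only, as PCR copies are not independent molecules. Sequences came from the RefSeq tables of GRCm38.p6.

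Named were the 12 highest members, the 5 lowest detected ones, the 4 read through the opposite strand, the 3 on each side with the largest tested log2 ratio at a mean of at least 100 reads, members with no read, and the 3 highest proximal genes. Other members named were chosen after their values were seen. Hairpins were folded with RNAfold 2.7.2. The members and lists were chosen with earlier results of these data known.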

Additional observations from a re-analysis of the deposited data

Results flagged for a closer look

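Reads outside the strand that was counted appeared at 1 locus. The row Mir299b, on the minus strand, had 9 own-strand reads in replicate 1 and 11 in replicate 2, above the 3 reads that a count of 0 allows. The opposite strand of the same row, which stands for Mir299a, had 6966 and 8368. The other 3 minus-strand rows of the cluster had 0 own-strand reads.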

How the results depend on the processing

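The cluster total was 29861 CPM. It was 15967 per 1000000 of all reads of a library, 24374 without the 4 members read through the other strand and 20752 without members that hold a shared stretch. With TMM, DESeq2 or the either-strand total it moved by less than the SD between libraries. TMM and DESeq2 scale the 2 libraries in opposite directions, so a mean over both can hardly move. The SD between libraries was 649 CPM in the main setting, 1086 with TMM and 1427 with DESeq2. The total ran from 29402 to 30319.9 with each replicate left out. The share of the 5 highest members, 61.3%, was 60.4% without shared-stretch members and 73.6% without those read through the other strand, and ran from 61.2% to 61.4% by replicate. The log2 ratio of the distal to the proximal total, 1.34, was 0.81 without shared-stretch genes, 2.17 without the highest gene of each stretch and, in a comparison added after the data were seen, 1.04 without members read through the other strand. With the row Mir3071, whose 2087 and 2506 own-strand reads overlap Mir136, also added afterwards, it was 1.28. This row is on the minus strand by GENCODE M21, and its strand in M4, used for the counts, was not checked. By replicate the log2 ratio ran from 1.28 to 1.40. These follow from the genes or reads left out.

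Detected members numbered 34 at a minimum of 1 read and 30 at 100, beside 517 and 229 of all 1973 rows. In either replicate alone they numbered 33, beside 327 rows in replicate 1 and 332 in replicate 2. Members past the exact binomial test numbered 22 with TMM, 20 with DESeq2 (12 higher, 8 lower), 21 with no filter and 22 at 100 reads. Of all rows tested, 45.2%, 43.1%, 22.4% and 58.0% passed under these settings in that order. Of the 22, 19 remained with DESeq2 and 21 with no filter, where Mir381 did not pass (adjusted p 0.0511, exact). Leaving out a replicate leaves no comparison of libraries. No paired analysis was possible because there is 1 group.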
